A study of Mus musculus with 19 samples.

Results

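The major histocompatibility complex (MHC) and antigen presentation genes were taken as every row of the deposited gene count table whose symbol begins with H2-, the prefix of the mouse MHC, together with B2m, Tap1, Tap2, Tapbp, Psmb8, Psmb9, Psmb10, Nlrc5, Cd74 and Ciita. This gave 54 of 23458 gene rows, 44 by prefix and 10 by name, and the rule uses no measured value. Of the 54, 43 passed the filter on low counts and were tested, and all 54 are accounted for below. H2-Ke2, a prefoldin subunit, and H2-Ke6, a hydroxysteroid dehydrogenase, carry the prefix because they lie in the region, and they do not present antigen.

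Polyadenylated RNA of C57BL/6 mouse cells was sequenced from leukemias, from control thymocytes without FLT3-ITD and from pre-leukemic marrow. FLT3-ITD is an internal tandem duplication in the receptor tyrosine kinase FLT3. The leukemias carried it through retroviral transfer or knock-in, and the pre-leukemic marrow through knock-in. In the retroviral model, donor marrow cells were infected with a murine stem cell virus (MSCV) carrying GFP alone or FLT3-ITD with GFP and were given to lethally irradiated recipients, from which donor CD4+CD8+ cells were sorted. All 4 retroviral groups carried Mx1-cre, a Cre recombinase under an interferon-inducible promoter: WT-GFP (Dnmt3a+/+, MSCV_GFP, n = 2), KO-GFP (Dnmt3a f/f, MSCV_GFP, n = 2), WT-ITD (Dnmt3a+/+, MSCV_FLT3-ITD-GFP, n = 3) and KO-ITD (Dnmt3a f/f, MSCV_FLT3-ITD-GFP, n = 4), where f is a floxed allele of the DNA methyltransferase gene Dnmt3a. The knock-in groups were unsorted marrow that carried 1 Flt3 allele with the duplication: pre-leukemic marrow (ER-cre negative, Dnmt3a f/f, n = 3), Dnmt3a f/+ leukemia (ER-cre positive, n = 2) and Dnmt3a f/f leukemia (ER-cre positive, n = 1). ER-cre is a Cre fused to the estrogen receptor, and the pre-leukemic group carries the floxed alleles and no Cre. The sources used here do not give ages, sex or the agent that induced Cre. Replicates are called biological in the labels without being tied to an animal, so p-values reflect only how these samples spread, which may be technical. The 19 deposited samples are 17 libraries, because both WT-GFP libraries were sequenced in a pair of technical runs that share a column. Donor marrow was enriched for Sca-1 in KO-ITD and WT-ITD replicate 1 and for ckit in KO-GFP and WT-ITD replicate 2; WT-ITD replicate 3 used whole marrow, and the enrichment is not given for WT-GFP.

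MHC class I molecules consist of a heavy chain (H2-K1 and H2-D1 are the classical ones of this strain) and the light chain beta-2 microglobulin (B2m), and show peptides from inside the cell to CD8+ T cells. The peptides are cut by the proteasome, whose inducible subunits Psmb8, Psmb9 and Psmb10 replace constitutive ones, and are pumped into the endoplasmic reticulum by the Tap1-Tap2 transporter and loaded with the help of tapasin (Tapbp). MHC class II molecules (H2-Aa with H2-Ab1, and H2-Eb1 with an alpha chain that this strain lacks) show peptides from endosomes to CD4+ T cells, with the invariant chain Cd74 as their escort. Nlrc5 is the transactivator of class I genes and Ciita that of class II genes. Double-positive thymocytes are known to carry less class I at the surface than mature T cells, and in mice class II is a product of B cells, dendritic cells, macrophages and thymic epithelium rather than of T cells.

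Library depth ran from 4933890 to 25331908 estimated counts. Levels are CPM, counts divided by the scaled size of their library, and compare libraries for 1 gene, while levels between genes are given per kilobase of exon. Dnmt3a, the targeted gene, was at 180.2 to 257 CPM in the Dnmt3a+/+ libraries, 53 to 207 CPM in the Mx1-cre f/f libraries, 129.6 to 154 CPM in pre-leukemic marrow and 36.5 to 55 CPM in the knock-in leukemias. The GFP libraries and WT-ITD replicates 1 and 3 came from thymus and WT-ITD replicate 2 from marrow. KO-ITD replicates 1 and 2 came from marrow and replicates 3 and 4 from thymus, and replicates 3 and 4 were deposited with the knock-in libraries in a second submission. Of the markers of the sorted double-positive stage, 10 genes of that stage summed to 11769 to 13686 CPM in GFP libraries, 2059 to 9307 CPM in the retroviral leukemias (lowest in KO-ITD replicates 3 and 4) and 6.87 to 22.9 CPM in knock-in marrow. KO-ITD replicate 4 also stood apart by its 12 monocyte and macrophage markers, which summed to 5039 CPM against 49.8 to 394 CPM in the other retroviral leukemias. Xist, transcribed from the inactive X chromosome, was at 1463 to 2839 CPM in the GFP libraries, but among the 7 retroviral leukemias it was above 2 CPM only in WT-ITD replicate 3 and KO-ITD replicate 2, and the part of this difference in the results was not tested. The 6 erythroid markers summed to 14 to 137 CPM in KO-GFP and 421 to 1429.9 CPM in KO-ITD (4 of 6 called higher), and the 7 stroma and endothelium markers to 149 to 149.8 and 128 to 1344 CPM (4 of 7 called higher), with the highest stroma sums in replicates 3 and 4; their part in the KO-ITD results was not tested.

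B2m (chromosome 2, 121973423 to 121978818, plus strand of mouse genome build mm9), the light chain shared by all class I molecules, was the member with the lowest adjusted p in both leukemia comparisons of the retroviral model. Its level was 446 and 393 CPM in WT-GFP thymocytes, 373 and 486 CPM in KO-GFP, 893, 994 and 1364 CPM in WT-ITD and 1519, 1063, 1823 and 1639 CPM in KO-ITD. All 7 leukemias therefore lay above all 4 thymocyte libraries, with no overlap. The difference between KO-ITD and KO-GFP passed the quasi-likelihood test of edgeR, with p-values adjusted by Benjamini-Hochberg over all 15508 genes, at a log2 fold change of 1.81 ± 0.33 (SE), adjusted p = 0.00478. The difference between WT-ITD and WT-GFP was nearly as large but did not pass (log2 fold change 1.37 ± 0.33 (SE), adjusted p = 0.0512), and the difference between these differences was not resolved (0.45 ± 0.43 (SE), adjusted p = 0.858). Without KO-GFP replicate 1 the KO-ITD call was lost too, at adjusted p = 0.109 and a log2 fold change of 1.64.

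The heavy chains did not move in step with B2m in every leukemia. H2-K1 (chromosome 17, 34132957 to 34137278, minus strand) was at 299 and 203 CPM in WT-GFP thymocytes, 172 and 313 CPM in KO-GFP, 178, 153 and 881 CPM in WT-ITD and 375, 385, 1124 and 584 CPM in KO-ITD. WT-ITD replicates 1 and 2 were thus below WT-GFP for H2-K1 while replicate 3 was several times above it, and the 4 KO-ITD leukemias were all above KO-GFP. H2-D1 (chromosome 17, 35400039 to 35404442, plus strand) was at 373 and 329 CPM in WT-GFP thymocytes, 274 and 342 CPM in KO-GFP, 438, 396 and 1114 CPM in WT-ITD and 652, 538, 1252 and 927 CPM in KO-ITD. For H2-D1 all leukemias exceeded the thymocytes of their genotype. H2-D1 rose in KO-ITD against KO-GFP (on the log2 scale by 1.45 ± 0.44 (SE), adjusted p = 0.0382), a call that was lost without KO-ITD replicate 3 (adjusted p = 0.0691), without replicate 4 (0.0512), without either KO-GFP library (0.288 and 0.131), with the marrow KO-ITD libraries alone (0.139), with the replicate number as a block (0.0946) and with the 2 groups fitted alone (0.0754). H2-K1 gave 1.35 ± 0.70 (SE), adjusted p = 0.173 in that comparison and 0.69 ± 0.71 (SE), adjusted p = 0.655 in WT-ITD against WT-GFP, neither of which passed, and H2-D1 gave 0.89 ± 0.45 (SE), adjusted p = 0.326 in the latter.

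The ratio of B2m to the summed classical heavy chains, both per kilobase, differed between the leukemias. It was 1.31 to 1.65 in the 4 thymocyte libraries, 2.89, 3.6 and 1.35 in WT-ITD and 2.93, 2.27, 1.46 and 2.15 in KO-ITD. WT-ITD replicate 3 and KO-ITD replicate 3, the leukemias with the most heavy chain RNA, had ratios within the thymocyte range, and the other 5 leukemias lay above it. In knock-in marrow the ratio was 0.970 to 1.47. These are descriptions without a test.

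**Figure D1:**
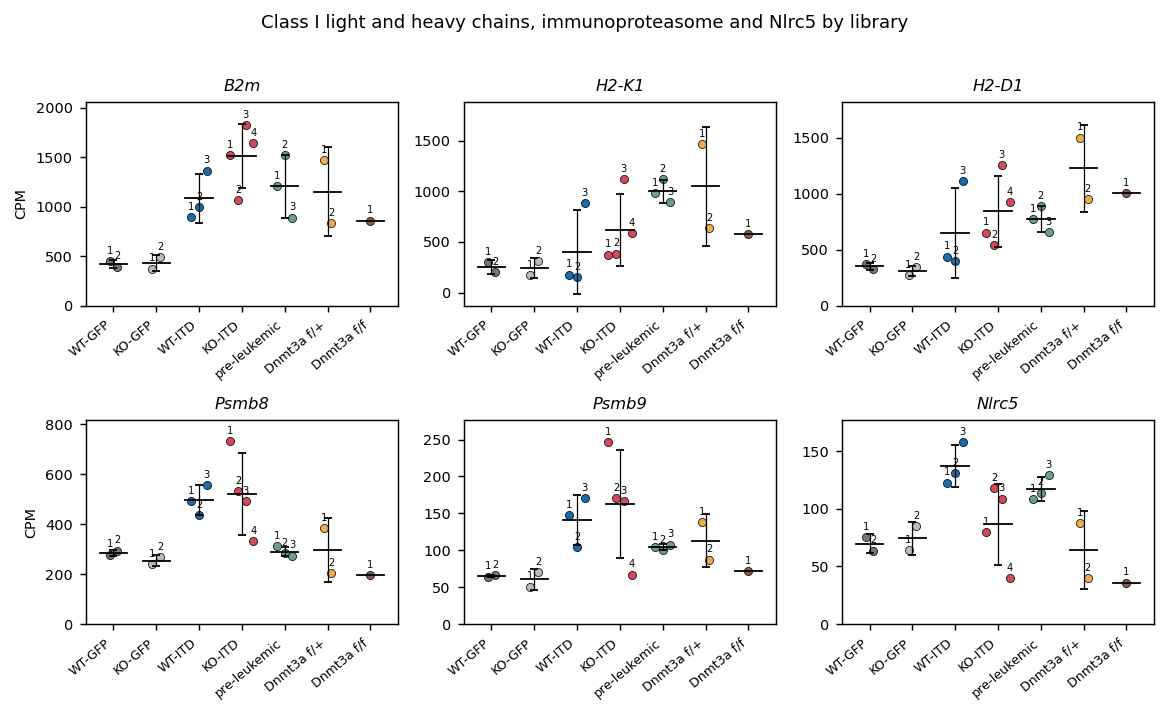
CPM (linear axes) of B2m, H2-K1, H2-D1, Psmb8, Psmb9 and Nlrc5 in each of 17 libraries by group; points are libraries numbered by replicate, horizontal lines are group means and bars are SD where a group has more than 1 library. B2m is higher in all 7 retroviral leukemias than in all 4 GFP libraries, while H2-K1 in WT-ITD replicates 1 and 2 is below both WT-GFP libraries.

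The promoters of these genes are shown because class I heavy chains carry a known pair of elements, a kappaB site and an interferon response element, that lie side by side in them. RefSeq promoters on GRCm38.p6 (250 bases before to 50 after the start) were matched by symbol for 37 of the 54 members, with 40 promoters in all; H2-K1, H2-DMa and H2-M9 have more than 1. In the stretches below, read 5′ to 3′ along the gene, capitals mark exact matches to GGGGATTCC (kappaB) or to AANNGAAA (the core bound by interferon regulatory factors, IRF), on either strand.
H2-D1 (chr17:35262914-35262958, plus strand): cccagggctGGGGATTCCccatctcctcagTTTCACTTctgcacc
H2-K1 (chr17:34000423-34000467, minus strand): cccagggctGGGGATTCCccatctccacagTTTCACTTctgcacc
H2-Q6 (chr17:35424668-35424712, plus strand): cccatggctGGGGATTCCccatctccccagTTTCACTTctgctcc
H2-Q7 (chr17:35439013-35439057, plus strand): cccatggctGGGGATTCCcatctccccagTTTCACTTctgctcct
H2-Q4 (chr17:35379434-35379478, plus strand): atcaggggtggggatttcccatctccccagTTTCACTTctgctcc
H2-Q2 (chr17:35342191-35342235, plus strand): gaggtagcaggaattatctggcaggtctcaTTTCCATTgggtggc
H2-T3 (chr17:36190263-36190307, minus strand): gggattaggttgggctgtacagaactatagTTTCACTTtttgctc
B2m (chr2:122147527-122147571, plus strand): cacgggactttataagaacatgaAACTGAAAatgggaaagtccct
The 45-base stretches of H2-K1 and H2-Q6 matched that of H2-D1 at 44 and 42 positions, and that of H2-Q4, which has no exact kappaB letters, at 39. The first bases of the kappaB and IRF letters were 21 apart in H2-D1, H2-K1 and H2-Q6 and 20 apart in H2-Q7. H2-Q2, H2-T3 and B2m held the IRF letters without the exact kappaB letters. Other forms of a kappaB site were not searched, so this does not show that B2m, H2-Q4 or the others lack one.

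Over both strands, 21 of the 40 member promoters held AANNGAAA (52.5%, against 23.9% of all 32851 RefSeq promoters of the same length) and 5 held GGGGATTCC (12.5% against 0.25%), the latter being H2-D1, H2-Q6, H2-Q7 and both H2-K1 promoters. The Y box CTGATTGG, the letters read by the factor NF-Y, was in 21 (52.5% against 4.1%), and the exact X box core letters AGCAACAG were in 0 of the 40 and in 2.26% of all. That 0 does not show that the X box is absent. The H2-Eb1 and H2-Eb2 stretches printed below hold the near letters AGCAACTG before the Y box. No promoter of H2-Ab1, Cd74 or Ciita was available to search. No match of one motif overlapped a match of another in these promoters, and the matches are descriptions: paralogs share sequence, so the promoters are not independent. The motifs were chosen as known elements of MHC promoters, so their shares are no test. Both H2-K1 promoters overlap and hold the same kappaB site. The Y box promoters include those of H2-M1, H2-M10.3, H2-M10.4 and H2-M10.5, which had 0 counts in every library.

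Immunoproteasome subunits had higher means in both groups of retroviral leukemias than in thymocytes, and edgeR called them in KO-ITD only. Psmb8 (chromosome 17, 34335140 to 34338399, plus strand) was at 278 and 295 CPM in WT-GFP thymocytes, 239 and 269 CPM in KO-GFP, 492, 437 and 557 CPM in WT-ITD and 732, 533, 494 and 332 CPM in KO-ITD. Psmb9 (chromosome 17, 34319044 to 34324275, minus strand) was at 64.4 and 65.8 CPM in WT-GFP thymocytes, 50.7 and 70.7 CPM in KO-GFP, 147, 104 and 170.3 CPM in WT-ITD and 246, 170.2, 167 and 67.1 CPM in KO-ITD. Psmb10 (chromosome 8, 108459628 to 108462292, minus strand) was at 71.6 and 77.1 CPM in WT-GFP thymocytes, 59.9 and 71.3 CPM in KO-GFP, 133, 104 and 183 CPM in WT-ITD and 245, 198, 119 and 101 CPM in KO-ITD. Every leukemia was above the thymocytes of its own genotype for Psmb8 and Psmb10, while KO-ITD replicate 4 was within the thymocyte range for Psmb9. All 3 subunits passed the test in KO-ITD against KO-GFP, with log2 fold changes of 1.04 ± 0.30 (SE), adjusted p = 0.0288 for Psmb8, 1.42 ± 0.40 (SE), adjusted p = 0.0287 for Psmb9 and 1.34 ± 0.35 (SE), adjusted p = 0.0219 for Psmb10. In WT-ITD against WT-GFP none of the 3 passed, at 0.79 ± 0.30, 1.11 ± 0.41 and 0.91 ± 0.36 (adjusted p of 0.200, 0.183 and 0.207). All 3 were there at an unadjusted p under 0.05 and higher without overlap. The difference between the KO-ITD and WT-ITD effects was not resolved. Its median over the 3 subunits was 0.31, and 0 of them were at an unadjusted p under 0.05 in edgeR.

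The KO-ITD calls of these subunits differed with the collection tissue of the leukemias used. With the thymus KO-ITD libraries alone (replicates 3 and 4), Psmb8, Psmb9 and Psmb10 had log2 fold changes of 0.70, 0.95 and 0.75 and did not pass (adjusted p of 0.0814, 0.0880 and 0.0668), against 1.32, 1.78 and 1.76 with the marrow ones alone (adjusted p of 0.0102, 0.00426 and 0.00386). Tissue and submission coincide within KO-ITD and cannot be told apart, and the difference between the tissues was not tested. Psmb8 and Psmb9 also lost the call without KO-ITD replicate 1 (adjusted p of 0.0555 and 0.0567), and all 3 subunits did so without either KO-GFP library, at adjusted p of 0.251, 0.272 and 0.223 without replicate 1 and 0.116, 0.0908 and 0.0929 without replicate 2. With the 2 groups fitted alone none of the 3 passed (adjusted p of 0.0896, 0.107 and 0.0818).

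Per kilobase, the 3 inducible subunits stood at 0.870 to 0.986 times the summed level of the constitutive subunits they replace (Psmb5, Psmb6, Psmb7) in thymocytes. The ratio was 1.32, 1.36 and 1.61 in WT-ITD, 1.49, 1.59, 1.35 and 1.13 in KO-ITD, 1.29, 1.29 and 1.16 in pre-leukemic marrow, 1.04 and 0.764 in Dnmt3a f/+ leukemia and 0.819 in Dnmt3a f/f leukemia. Every retroviral leukemia was above every thymocyte library for this ratio, and each knock-in leukemia was below every pre-leukemic library. The inducible subunits summed to 677.8 and 389 CPM in Dnmt3a f/+ and 370 CPM in f/f leukemia, against 485.5 to 514.8 CPM in pre-leukemic marrow. The constitutive ones summed to 561.4, 438.2 and 384.2 CPM, against 323.9 to 371.3 CPM. Replicate 1 of Dnmt3a f/+ thus had a lower ratio with more inducible subunit RNA. The ratio was not tested.

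The transporter genes and tapasin did not pass in the leukemias. Tap1 (chromosome 17, 34324501 to 34334170, plus strand) was at 185 and 196 CPM in WT-GFP thymocytes, 170.4 and 179.6 CPM in KO-GFP, 195, 205 and 316 CPM in WT-ITD and 186, 188, 285 and 163 CPM in KO-ITD. The groups overlapped or nearly touched, with log2 fold changes of 0.33 ± 0.25 (SE), adjusted p = 0.535 for WT-ITD and 0.23 ± 0.24 (SE), adjusted p = 0.488 for KO-ITD against GFP. Tap2 (chromosome 17, 34341424 to 34353266, plus strand) was at 368 and 441 CPM in WT-GFP thymocytes, 379 and 329.8 CPM in KO-GFP, 449, 479.7 and 769 CPM in WT-ITD and 606, 515, 511 and 323 CPM in KO-ITD, and tapasin ranged from 128 to 139.8 CPM in thymocytes and from 106 to 228 CPM in the retroviral leukemias. None of these 3 genes passed a test within the retroviral model. Tap1 and Psmb9 are transcribed in opposite directions from a shared promoter. It is printed here, along Psmb9 up to its start and with the Y box in capitals, because the genes it serves gave different results.
Psmb9 (chr17:34187331-34187430, minus strand): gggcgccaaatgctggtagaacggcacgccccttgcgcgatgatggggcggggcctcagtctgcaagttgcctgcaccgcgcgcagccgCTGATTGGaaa

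Nlrc5, the class I transactivator (chromosome 8, 96996663 to 97051172, plus strand), was at 75.8 and 63.8 CPM in WT-GFP thymocytes, 63.9 and 84.7 CPM in KO-GFP, 123, 131 and 158 CPM in WT-ITD and 79.7, 118, 109 and 39.9 CPM in KO-ITD. All 3 WT-ITD leukemias were above all thymocyte libraries, and KO-ITD replicate 4 was below all of them. The log2 fold change was 0.97 ± 0.40 (SE), adjusted p = 0.230 for WT-ITD against WT-GFP and 0.22 ± 0.38 (SE), adjusted p = 0.686 for KO-ITD against KO-GFP, and neither passed. KO-ITD against WT-ITD gave -0.66 ± 0.33 (SE), adjusted p = 0.272. Every KO-ITD leukemia lay below every WT-ITD leukemia, which held for 1 of the 43 tested members (2.33%) and for 6.24% of all genes.

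The share of members called lay near that of all genes for higher calls and below it for lower ones. In KO-ITD against KO-GFP, 6 of 43 members were called higher (14%; background 9.8% of all genes tested) and 1 was called lower (2.33%; background 9.85%). The median log2 fold change was 0.65 over the members and 0.19 over all genes. In WT-ITD against WT-GFP edgeR called 0 of 43 in either direction, where 1.35% of all genes were called higher and 0.89% lower. At an unadjusted p under 0.05, 7 members were higher and 3 lower (23.3% in all, where 9.57% of all genes were higher and 8.16% lower at that threshold), and DESeq2 and limma voom each called 1 higher (B2m) and 1 lower (H2-K2). The WT-ITD median was 0.38 over the members and 0.03 over all genes. Groups without overlap between their libraries were common over all genes. In KO-ITD against KO-GFP, 27.9% of members lay higher without overlap and 6.98% lower, against 22.9% and 21.8% of all genes. The shares in WT-ITD against WT-GFP were 25.6% and 11.6% of members, against 20.9% and 24.9% of all genes.

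KO-GFP against WT-GFP had 0 members called by edgeR, DESeq2 or limma voom, where edgeR called 0% of all genes higher and 0% lower. At an unadjusted p under 0.05 it had 0 members, where 0.303% of all genes were higher and 0.174% lower. Of the 43 members, 35 had a negative log2 fold change and 7 a positive one (16.3% positive, against 45.7% of all genes). Without overlap between the libraries of the groups, 17 lay lower (39.5%, against 20.9% of all genes) and 1 higher (2.33%, against 17.1%). Members share reads and sequence, and this shift was not tested. Over the 31 members with a mean of at least 10 CPM, the log2 fold changes lay between -0.82 (H2-Oa) and 0.24 (H2-T24). Their median SE was 0.49, from a spread shared over all groups. Differences of about 1 log2 unit would therefore be missed for most of them at the adjusted threshold, and larger ones may be missed too. KO-ITD against WT-ITD had 0 members called by each of the 3 tools (background in edgeR 0.206% higher and 0.284% lower). At an unadjusted p under 0.05 it had 1 member higher and 0 lower (2.33%), fewer than the 12.2% higher and 8.08% lower of all genes. The difference of the FLT3-ITD effect between Dnmt3a genotypes had 0 members called by each tool, with a background in edgeR of 0% and 0%. At an unadjusted p under 0.05 it had 0 members too, where 3.56% of all genes were higher and 1.84% lower. These 3 comparisons share libraries with each other and with the leukemia comparisons above. KO-ITD against WT-ITD gained 2 members called higher without WT-ITD replicate 3 and 1 with the marrow libraries alone, and 0 in the thymus libraries alone or in the first-submission libraries alone.

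**Figure D2:**
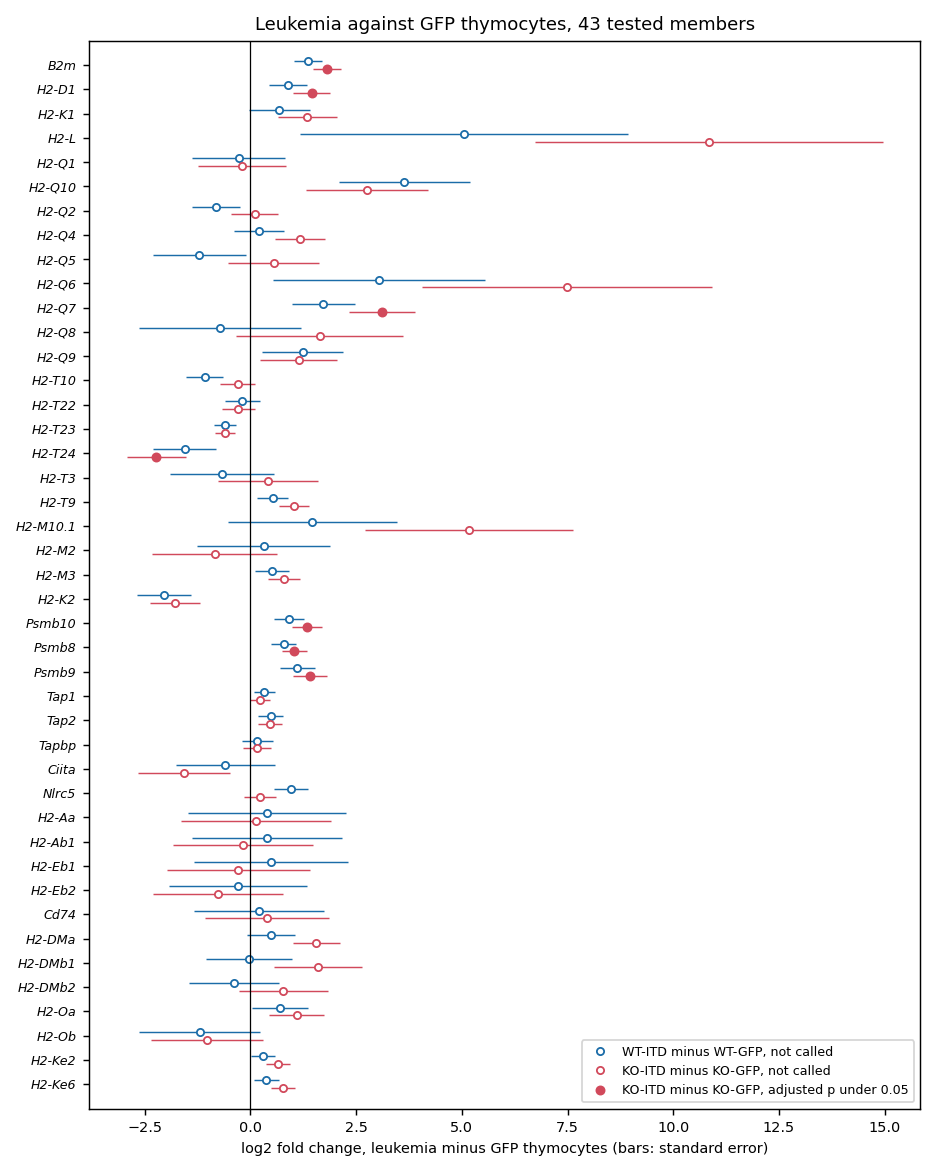
Log2 fold change (x axis, with SE bars) of each of the 43 tested members in WT-ITD minus WT-GFP (blue) and KO-ITD minus KO-GFP (red); filled points passed an adjusted p of 0.05. The filled points are B2m, H2-D1, H2-Q7, H2-T24 and the 3 immunoproteasome genes, all in red; the values of H2-L, H2-Q6 and H2-M10.1 rest on GFP libraries at or near 0 counts and are no measure of size.

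H2-Q2 and H2-Q1, class I genes outside the classical pair, were near 0 in knock-in marrow. H2-Q2 (chromosome 17, 35479278 to 35482667, plus strand) was at 88.9 and 99.5 CPM in WT-GFP thymocytes, 78.5 and 65 CPM in KO-GFP, 31.7, 31.1 and 98 CPM in WT-ITD and 110.5, 87.1, 79 and 31.2 CPM in KO-ITD. It was at 1.07, 0.377 and 0.213 CPM in pre-leukemic marrow, 0.128 and 0.0716 CPM in Dnmt3a f/+ leukemia and 0.107 CPM in Dnmt3a f/f leukemia. Every sorted library thus held at least 31.1 CPM and every knock-in library at most 1.07 CPM. H2-Q1 (chromosome 17, 35457503 to 35462044, plus strand) was at 15.3 and 16.8 CPM in WT-GFP thymocytes, 12.6 and 11.8 CPM in KO-GFP, 1.77, 1.84 and 36.3 CPM in WT-ITD and 12.9, 18.2, 7.22 and 4.13 CPM in KO-ITD. In the knock-in model it was at 0.356, 0 and 0.468 CPM in pre-leukemic marrow, 0.385 and 0.716 CPM in Dnmt3a f/+ leukemia and 1.66 CPM in Dnmt3a f/f leukemia. WT-ITD replicates 1 and 2 came close to the knock-in level for H2-Q1 while replicate 3 was above all thymocytes.

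H2-T10 (chromosome 17, 36252816 to 36258389, minus strand), whose product is a ligand of gamma-delta T cell receptors, was at 66.1 and 82.8 CPM in WT-GFP thymocytes, 49.2 and 59 CPM in KO-GFP, 38.8, 34.1 and 32.3 CPM in WT-ITD and 53.1, 72.3, 32.5 and 18.2 CPM in KO-ITD. In knock-in marrow it was at 8.18, 5.47 and 9.45 CPM before leukemia, 19.2 and 30.3 CPM in Dnmt3a f/+ leukemia and 7.67 CPM in Dnmt3a f/f leukemia. Of its 2 transcript models, the noncoding one held 85 to 100% of the estimated H2-T10 counts in every library except Dnmt3a f/+ replicate 2 (31.7%). These levels are therefore mostly not those of the coding transcript. H2-K2 (chromosome 17, 34111604 to 34115736, minus strand), whose only model is noncoding, was at 19.1 and 24.3 CPM in WT-GFP thymocytes, 18.8 and 14.2 CPM in KO-GFP, 3.89, 2.27 and 9.58 CPM in WT-ITD and 2.93, 4.73, 8.42 and 3.28 CPM in KO-ITD. It was at 3.02, 1.32 and 1.57 CPM in pre-leukemic marrow, 3.01 and 6.23 CPM in Dnmt3a f/+ leukemia and 2.68 CPM in Dnmt3a f/f leukemia, so that every leukemia and every pre-leukemic library lay below every thymocyte library. Its log2 fold change was -2.05 ± 0.64 (SE), adjusted p = 0.116 in WT-ITD and -1.77 ± 0.59 (SE), adjusted p = 0.0506 in KO-ITD against GFP, and edgeR called neither, while DESeq2 and limma voom called both lower.

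H2-T24 (chromosome 17, 36142640 to 36157505, minus strand) was the member that fell in the KO-ITD leukemias (log2 fold change against KO-GFP of -2.22 ± 0.70 (SE), adjusted p = 0.0412). It was at 33.3 and 28.6 CPM in WT-GFP thymocytes, 42.7 and 30.4 CPM in KO-GFP, 8.62, 8.95 and 14.1 CPM in WT-ITD and 7.51, 12.9, 3.13 and 7.65 CPM in KO-ITD, with every leukemia below every thymocyte library. The value for WT-ITD against WT-GFP was -1.55 ± 0.75 (SE), adjusted p = 0.303. In knock-in marrow it was at 14.9, 19.6 and 16.9 CPM in pre-leukemic marrow, 1.35 and 20.4 CPM in Dnmt3a f/+ leukemia and 8.26 CPM in Dnmt3a f/f leukemia. The KO-ITD call was lost without KO-ITD replicate 1, 3 or 4, without either KO-GFP library, with the marrow KO-ITD libraries alone, with the replicate block and with the 2 groups alone, at adjusted p between 0.0607 and 0.267.

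H2-Q7 encodes a heavy chain of the Qa-2 antigen (chromosome 17, 35576100 to 35580718, plus strand). It was at 13.4 and 10.3 CPM in WT-GFP thymocytes, 7.35 and 12.1 CPM in KO-GFP, 31.8, 28.9 and 57.6 CPM in WT-ITD and 73.9, 55.3, 181 and 26 CPM in KO-ITD, so that every leukemia exceeded every thymocyte library. In knock-in marrow it was at 58.5, 80.7 and 65.5 CPM in pre-leukemic marrow, 218 and 48.9 CPM in Dnmt3a f/+ leukemia and 21.4 CPM in Dnmt3a f/f leukemia. The log2 fold change was 3.11 ± 0.78 (SE), adjusted p = 0.0170 for KO-ITD against KO-GFP. The gene model of H2-Q9 covers 99.0% of the exonic bases of H2-Q7 in the deposited annotation, so their reads cannot be told apart, and the share given to H2-Q9 ran from 20.2 to 64.2% of the pair. Summed over both models the level was 28.2 and 23 CPM in WT-GFP thymocytes, 14.1 and 33.7 in KO-GFP, 44.6, 41 and 129.9 in WT-ITD and 93.2, 84.1, 252 and 33.1 CPM in KO-ITD, where replicate 4 was within the thymocyte range. With the 4 overlapping model pairs of the annotation merged, an alternative chosen after the values were seen, the log2 fold change was 2.27 and did not pass (adjusted p = 0.0641). The call was also lost without either KO-GFP library (adjusted p of 0.210 and 0.0803), with limma voom (0.0572) and with the 2 groups alone (0.0709).

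The same limit holds for H2-L with H2-D1 (99.6% of the exonic bases of H2-L), H2-Q6 with H2-Q8 and H2-T9 with H2-T22. H2-L, which the H2-b haplotype of C57BL/6 is known to lack as a separate gene, was listed at 0 CPM in all 4 thymocyte libraries, at 0 to 0.934 CPM in 6 retroviral leukemias, at 57.6 CPM in KO-ITD replicate 3 and at 1.07 to 33.5 CPM in knock-in libraries. H2-Q6 and H2-Q8 together were at 3.9 to 8.56 CPM in thymocytes, 0.490 to 74.3 CPM in retroviral leukemias and 29 to 108 CPM in knock-in libraries. The locus sums of H2-D1 with H2-L differed from H2-D1 alone by at most 4.85% of counts. H2-Q4 was at 127 to 160.5 CPM in thymocytes, 99.5, 97 and 339.6 CPM in WT-ITD and 204, 221, 606 and 212 CPM in KO-ITD; H2-T23, the heavy chain of Qa-1, was at 157 to 202 CPM in thymocytes, 83.8 to 164 CPM in the retroviral leukemias and 79.7 to 164 CPM in knock-in libraries. H2-T22 with H2-T9 was at 53.7 to 72.9 CPM in thymocytes, 59.5 to 112 CPM in retroviral leukemias and 43.4 to 96.4 CPM in knock-in libraries. H2-T3, the thymus leukemia antigen, was at 2.6 to 4.36 CPM in thymocytes, reached 12.5 CPM in KO-ITD replicate 2 and was at most 0.377 CPM in knock-in marrow. H2-M3, which presents formylated peptides, was at 14.8 to 22.9 CPM in thymocytes, 19.8 to 44.6 CPM in the retroviral leukemias and 21.1 to 63.4 CPM in knock-in libraries. H2-Q5, whose only model is noncoding, was at most 23.3 CPM, H2-Q10 at most 10.4 CPM, H2-M2 at most 5.34 CPM and H2-M10.1 at most 0.764 CPM in any library. H2-Ke2 ranged from 42.9 to 114 CPM and H2-Ke6 from 21.4 to 59.1 CPM over the 17 libraries, and edgeR called neither in any of the 9 comparisons fitted over all groups. DESeq2 called both in KO-ITD against KO-GFP and H2-Ke6 in Dnmt3a f/+ leukemia against pre-leukemic marrow.

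**Figure D3:**
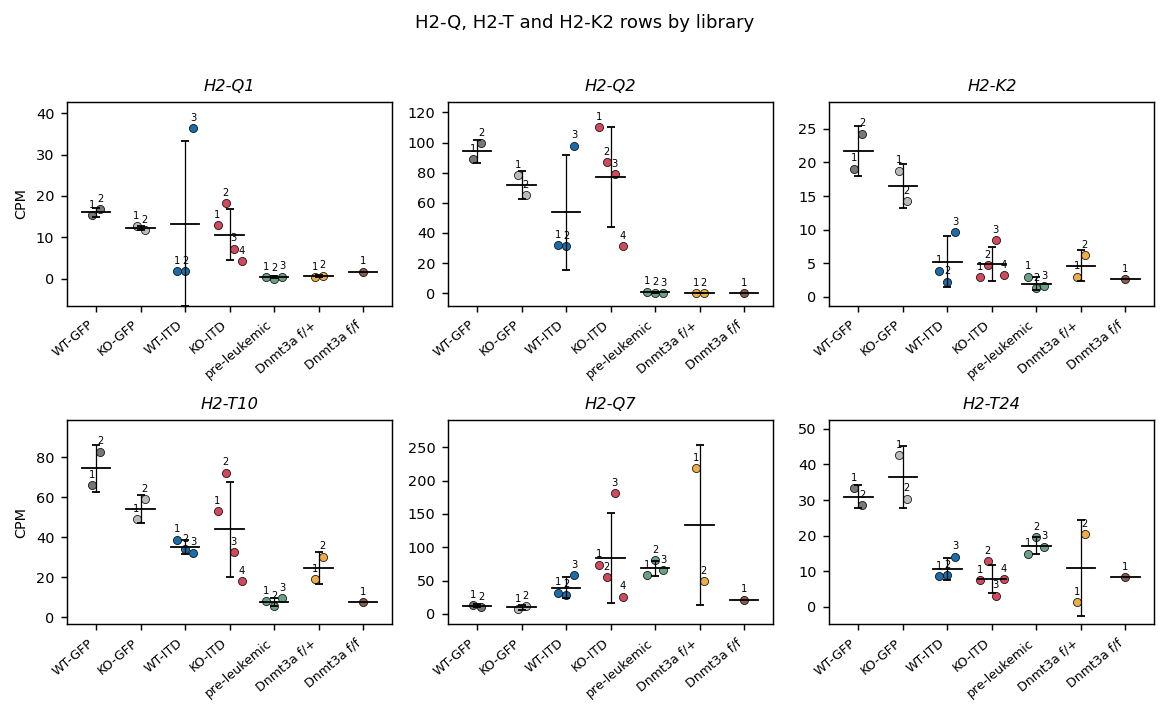
CPM (linear axes) of H2-Q1, H2-Q2, H2-K2, H2-T10, H2-Q7 and H2-T24 in each library by group; points are libraries numbered by replicate, lines are means and bars SD. H2-Q1 and H2-Q2 are near 0 in all 6 knock-in libraries, H2-K2 and H2-T24 are lower in every retroviral leukemia than in every GFP library, and H2-Q7 is higher.

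Class II genes varied widely between leukemias of 1 genotype. H2-Aa, the class II alpha chain (chromosome 17, 34419696 to 34424716, minus strand), was at 67.8 and 62.6 CPM in WT-GFP thymocytes, 50.1 and 56.4 CPM in KO-GFP, 3.05, 0.245 and 254 CPM in WT-ITD and 3.05, 3.24, 166 and 62 CPM in KO-ITD. WT-ITD replicates 1 and 2 and KO-ITD replicates 1 and 2 were thus far below the thymocytes, WT-ITD replicate 3 and KO-ITD replicate 3 were above them, and KO-ITD replicate 4 was among them. The SE of the log2 fold change was correspondingly wide, at 0.40 ± 1.87 (SE), adjusted p = 0.941 for WT-ITD and 0.14 ± 1.77 (SE), adjusted p = 0.968 for KO-ITD against GFP, and -0.55 ± 1.54 (SE), adjusted p = 0.873 for KO-ITD against WT-ITD.

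The other class II chains and the escort were low in the same 4 leukemias. H2-Ab1 (chromosome 17, 34400172 to 34406363, plus strand) was at 65.6 and 52.6 CPM in WT-GFP thymocytes, 43.9 and 53.5 CPM in KO-GFP, 2.95, 0.368 and 229.9 CPM in WT-ITD and 3.44, 3.13, 109.8 and 56.8 CPM in KO-ITD. H2-Eb1 (chromosome 17, 34442812 to 34453619, plus strand) was at 62.2 and 55.1 CPM in WT-GFP thymocytes, 49.4 and 47.8 CPM in KO-GFP, 3.4, 0.429 and 245 CPM in WT-ITD and 2.93, 2.47, 108 and 45.8 CPM in KO-ITD. Cd74 was at 170.1 and 162 CPM in WT-GFP thymocytes, 123 and 168 CPM in KO-GFP, 23, 2.57 and 549 CPM in WT-ITD and 64.4, 17, 391 and 294 CPM in KO-ITD. The 3 highest of the 7 leukemias were WT-ITD replicate 3 and KO-ITD replicates 3 and 4 for H2-Aa, H2-Ab1, H2-Eb1, H2-Eb2, Cd74, Ciita, H2-DMb1 and H2-DMb2, all of them collected from thymus. KO-ITD replicate 4 was among the thymocytes for H2-Ab1, just below them for H2-Eb1 and above them for Cd74. The other 4 leukemias, WT-ITD replicate 1 from thymus and the 3 from marrow, were below all thymocytes for each of these genes except H2-DMb1, for which KO-ITD replicate 1 was above them at 7.64 CPM.

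Cd74 lay less far below the thymocyte level than the chains it escorts in the leukemias low in class II. Its CPM was 0.843 to 1.05 times that of the summed class II chains in thymocytes, 2.42, 2.47 and 0.744 times in WT-ITD and 6.66, 1.83, 1.01 and 1.77 times in KO-ITD. The 4 leukemias low in H2-Aa had ratios of at least 1.83. KO-ITD replicate 1 was the extreme, with a summed class II level of 9.67 CPM beside 64.4 CPM of Cd74.

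The accessory genes divided into those that followed H2-Aa and those that did not. H2-Oa, the alpha chain of the DM inhibitor H2-O, was at 15.1 to 33.1 CPM in thymocytes, 50.6, 45.8 and 45.5 CPM in WT-ITD and 38.2, 20.7, 60 and 22.2 CPM in KO-ITD. Its model overlaps an opposite-strand gene over 19.1% of its exonic bases, and use of strand is not given. Its partner H2-Ob was at 15.3 to 19.7 CPM in thymocytes, 2.41, 1.59 and 19 CPM in WT-ITD and 1.4, 0.275, 27.9 and 2.18 CPM in KO-ITD. H2-DMa, a chain of the peptide exchange factor H2-DM (chromosome 17, 34259777 to 34276046, plus strand), was at 21.7 and 26.8 CPM in WT-GFP thymocytes, 17.9 and 20 CPM in KO-GFP, 19.2, 15.3 and 67.5 CPM in WT-ITD and 66.4, 37.8, 80.8 and 39 CPM in KO-ITD. All 4 KO-ITD leukemias were above all thymocytes for H2-DMa, 2 of them low in class II chains, but the difference did not pass in edgeR (1.56 ± 0.56 (SE), adjusted p = 0.0656). DESeq2 called H2-DMa higher there and limma voom did not. H2-DMb1 and H2-DMb2, the beta chains, were at 3.64 to 5.72 and 3.04 to 4.62 CPM in thymocytes and 0.735 to 27.4 and 0.738 to 14.9 CPM in the retroviral leukemias, and H2-Eb2 reached 8.66 CPM.

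Markers of other cells also differed between the leukemias, and not all of them in the order of the class II genes. The 8 B cell markers summed to 57.4 to 131 CPM in thymocytes, 13.7, 8.46 and 93.1 CPM in WT-ITD and 59.2, 37.3, 196 and 109.6 CPM in KO-ITD, with 1, 4 and 0 and 3, 1, 0 and 1 of the 8 at 0. Cd79a, a chain of the B cell receptor complex, was at 1.72, 0.490 and 22.8 CPM in WT-ITD and 3.95, 1.1, 38.4 and 9.1 CPM in KO-ITD against 6.32 to 17.5 CPM in thymocytes. Pax5, a transcription factor of the B lineage, was at 0, 0 and 1.66 CPM in WT-ITD and 0, 0.110, 7.1 and 0 CPM in KO-ITD against 0.680 to 1.3 CPM in thymocytes. The 7 dendritic cell markers summed to 8.95 to 20 CPM in thymocytes, 5.12, 0.245 and 30.6 CPM in WT-ITD and 3.82, 10.3, 3.85 and 22.5 CPM in KO-ITD, with 2, 4 and 0 and 2, 3, 1 and 0 at 0. The 12 monocyte and macrophage markers summed to 150.4, 49.8 and 394 CPM in WT-ITD and 356, 191, 245 and 5039 CPM in KO-ITD. Krt8, an epithelial keratin, was at 0, 0 and 14.4 CPM in WT-ITD and 0, 0.0550, 3.61 and 15.3 CPM in KO-ITD, while the 9 thymic epithelium markers summed to 158, 174 and 235 and 126, 132, 335 and 125 CPM, mostly Epcam, with 5, 5 and 0 and 4, 3, 2 and 1 at 0. Of the 8 B cell markers, 7, 7 and 1 in WT-ITD and 7, 7, 0 and 4 in KO-ITD were below every thymocyte library, and 0, 0 and 3 and 0, 0, 6 and 2 were above. In the 4 leukemias low in class II the exception was Blk in WT-ITD (7.98 and 6.93 CPM) and Cd79b in KO-ITD (52.7 and 35.3 CPM), while Cd79b was at 23.5 CPM in WT-ITD replicate 3. KO-ITD replicate 3, high in class II, had a dendritic cell sum below all thymocytes and a macrophage sum below that of KO-ITD replicate 1. The part of these cells in the class II levels was not tested, and in bulk RNA fewer cells of a type cannot be told from less RNA per cell.

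**Figure D4:**
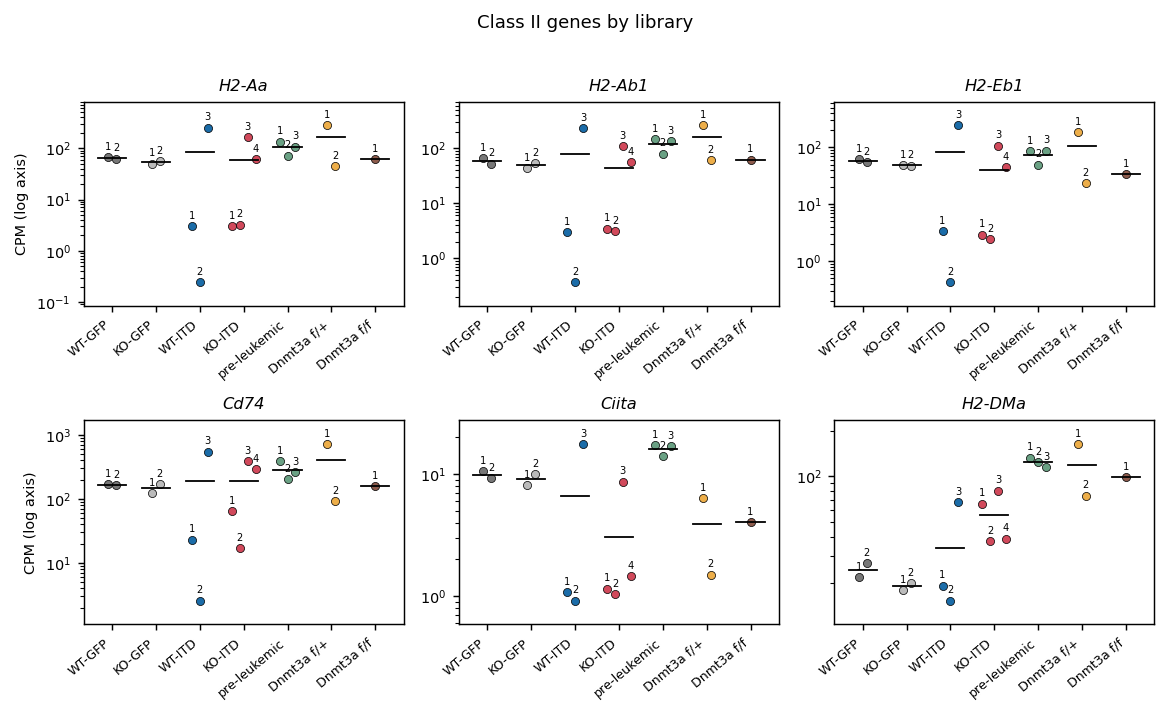
CPM (logarithmic axes) of H2-Aa, H2-Ab1, H2-Eb1, Cd74, Ciita and H2-DMa in each library by group; points are libraries numbered by replicate and lines are arithmetic group means. WT-ITD replicates 1 and 2 and KO-ITD replicates 1 and 2 sit below all GFP thymocytes for the first 5 genes, and of these 4 leukemias only WT-ITD replicate 2 does so for H2-DMa.

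The class II promoters are printed because the Y box and the bases before it, where the X box lies, are what the Ciita-dependent complex is known to bind. Capitals mark CTGATTGG.
H2-Aa (chr17:34287854-34287923, minus strand): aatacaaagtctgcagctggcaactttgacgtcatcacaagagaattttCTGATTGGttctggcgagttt
H2-Eb1 (chr17:34305756-34305825, plus strand): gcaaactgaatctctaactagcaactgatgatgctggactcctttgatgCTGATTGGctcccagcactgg
H2-Eb2 (chr17:34325523-34325592, plus strand): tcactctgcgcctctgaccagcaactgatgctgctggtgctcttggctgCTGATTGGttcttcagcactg
All 3 promoters held the Y box on the strand of the gene. Among the accessory genes H2-Oa also held it, while the promoters of H2-Ob, H2-DMa, H2-DMb1 and H2-DMb2 had no match in the window. The class I promoters of H2-D1, H2-K1, H2-Q6 and H2-Q7 held the same letters on the opposite strand.

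Ciita, the class II transactivator (chromosome 16, 10480165 to 10527657, plus strand), was at 10.6 and 9.24 CPM in WT-GFP thymocytes, 8.18 and 9.98 CPM in KO-GFP, 1.08, 0.919 and 17.7 CPM in WT-ITD and 1.15, 1.04, 8.66 and 1.46 CPM in KO-ITD. WT-ITD replicates 1 and 2 and KO-ITD replicates 1 and 2 were below all thymocytes for Ciita as for H2-Aa, and WT-ITD replicate 3 was above them for both. KO-ITD replicate 3, above all thymocytes for H2-Aa, was among them for Ciita, and KO-ITD replicate 4, with 62 CPM of H2-Aa, had Ciita near the level of the leukemias low in class II. Log2 fold changes were -0.59 ± 1.17 (SE), adjusted p = 0.837 and -1.57 ± 1.09 (SE), adjusted p = 0.299 for WT-ITD and KO-ITD against GFP.

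The annotation holds 3 Ciita transcripts that differ in where they start, and alternative first exons of this gene are known to be used in dendritic cells, in B cells and after interferon gamma. In the 4 leukemias low in class II and in KO-ITD replicate 4, all of the estimated counts within rounding went to the transcript with the most downstream start (at 10489874), although these were only 22 and 15 counts in WT-ITD replicates 1 and 2 and 9, 19 and 12 in KO-ITD replicates 1, 2 and 4. KO-ITD replicate 3 had all of its 72 counts on the middle start (at 10488271), and WT-ITD replicate 3 had 22.3%, 32.2% and 45.5% on the upstream, middle and downstream starts. Thymocytes had 42.5, 67.1, 68 and 74.2% on the middle start. In knock-in marrow the downstream start had 1.7, 31.3 and 60.9% in pre-leukemic libraries, 100 and 99.9% in Dnmt3a f/+ leukemia and 0% in the Dnmt3a f/f leukemia. The 3 transcripts share nearly all of their exons, so the split is an estimate by the authors' software from few reads and was not tested.

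**Figure D5:**
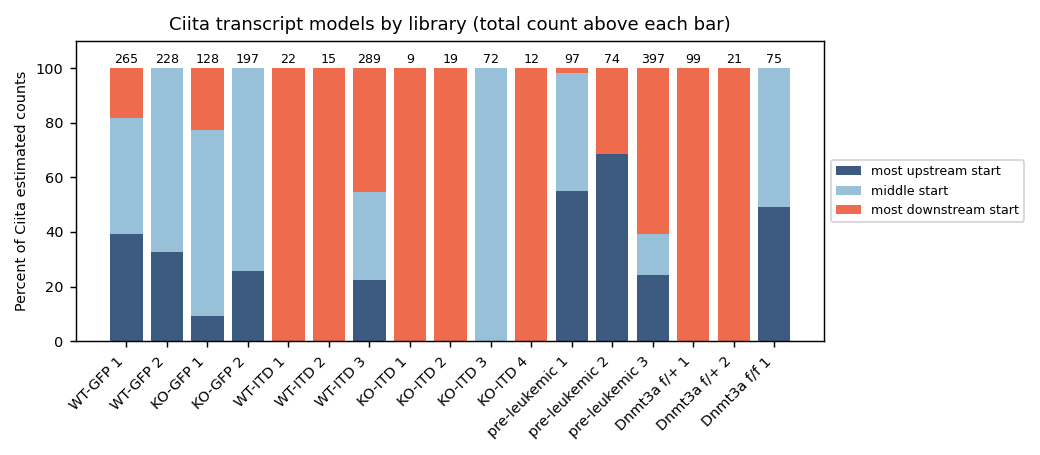
Percent of the estimated Ciita counts (y axis) assigned to the transcripts with the most upstream, middle and most downstream start in each of 17 libraries, with the total count above each bar. In WT-ITD 1 and 2, KO-ITD 1, 2 and 4 and both Dnmt3a f/+ leukemias the whole bar is the most downstream start, on totals of 9 to 99 counts.

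The split between transcripts is given for Cd74 and Tap1 too. The longer Cd74 transcript, which has 9 exons against 8 and encodes the form with an added protease-inhibiting domain, held 18.5, 13.9, 18.7 and 15% of Cd74 counts in thymocytes, 14.3, 8.4 and 23.7% in WT-ITD and 5.6, 22.5, 11.4 and 11.3% in KO-ITD. A Tap1 transcript with 12 exons in place of 11 held 3, 3.1, 4.3 and 3.6% of Tap1 counts in thymocytes and 5.2, 3.9 and 3.2% in WT-ITD. In KO-ITD it held 4.4, 2.6, 21.9 and 14.1%, in pre-leukemic marrow 0, 4.8 and 2.6%, in Dnmt3a f/+ leukemia 10.2 and 20.8% and in the Dnmt3a f/f leukemia 15.8%. The 5 highest shares of this Tap1 transcript were thus in KO-ITD replicates 3 and 4 and the 3 knock-in leukemias, all from the second submission, to which the low pre-leukemic libraries also belong.

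In the knock-in model edgeR called no member between leukemia and pre-leukemic marrow. B2m was at 1203, 1519 and 888 CPM in pre-leukemic marrow, 1471 and 833 CPM in Dnmt3a f/+ leukemia and 857 CPM in Dnmt3a f/f leukemia. H2-K1 was at 985, 1117 and 893 CPM in pre-leukemic marrow, 1464 and 635 CPM in Dnmt3a f/+ leukemia and 574 CPM in Dnmt3a f/f leukemia. H2-D1 was at 771, 890.1 and 657 CPM in pre-leukemic marrow, 1502 and 954 CPM in Dnmt3a f/+ leukemia and 1006 CPM in Dnmt3a f/f leukemia. Dnmt3a f/+ replicate 1 was the highest of the 6 for H2-K1 and H2-D1, and replicate 2 was below the pre-leukemic libraries for H2-K1 and above them for H2-D1. For Dnmt3a f/+ against pre-leukemic marrow, edgeR called 0 of 43 members, with a background of 3.43% higher and 1.57% lower. At an unadjusted p under 0.05, 4 were higher and 2 lower (14%), against 15.1% and 9.89% of all genes. DESeq2 called 3 higher (H2-Ke6, H2-Q10, H2-T10) and limma voom 0. H2-T10 came closest, with a log2 fold change of 1.67 ± 0.45 (SE), adjusted p = 0.050. For Dnmt3a f/f (1 library, assumed to vary like the other groups) against pre-leukemic marrow, edgeR called 0, with a background of 2.11% and 0.903%. Unadjusted, 2 were higher and 2 lower (9.3%), against 11.8% and 9.12% of all genes. DESeq2 called 1 higher (H2-Q10) and 1 lower (Nlrc5) and limma voom 1 higher (H2-Q10). Dnmt3a f/f against f/+ had 0 called by each of the 3 tools, with a background in edgeR of 0% and 0%. Unadjusted, 0 members were higher and 4 lower (9.3%), against 3.33% and 5.39% of all genes. These comparisons share the pre-leukemic or f/+ libraries.

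The knock-in leukemias also differed among themselves in class II. H2-Aa was at 135, 71.8 and 108 CPM in pre-leukemic marrow, 280.1 and 45.2 CPM in Dnmt3a f/+ leukemia and 61.2 CPM in Dnmt3a f/f leukemia. H2-Ab1 was at 148, 79.8 and 135 CPM in pre-leukemic marrow, 262 and 60.8 CPM in Dnmt3a f/+ leukemia and 62.1 CPM in Dnmt3a f/f leukemia. H2-Eb1 was at 87.5, 49.8 and 87.9 CPM in pre-leukemic marrow, 188 and 23.4 CPM in Dnmt3a f/+ leukemia and 34.3 CPM in Dnmt3a f/f leukemia. Cd74 was at 389.9, 206 and 265 CPM in pre-leukemic marrow, 727 and 92.9 CPM in Dnmt3a f/+ leukemia and 157 CPM in Dnmt3a f/f leukemia. Dnmt3a f/+ replicate 1 was the highest knock-in library for all 4 genes and replicate 2 and the f/f leukemia were below every pre-leukemic library for each of them. H2-Ob was at 31.5, 25.5 and 28.4 CPM in pre-leukemic marrow, 96.4 and 10 CPM in Dnmt3a f/+ leukemia and 7.18 CPM in Dnmt3a f/f leukemia, with the same library highest. Ciita was at 17.2, 14 and 16.9 CPM before leukemia, 6.35 and 1.5 CPM in Dnmt3a f/+ and 4.02 CPM in Dnmt3a f/f leukemia, so that all 3 leukemias were below all pre-leukemic libraries, also the replicate with the most class II. Nlrc5 was at 109, 114 and 129 CPM in pre-leukemic marrow, 87.9 and 40 CPM in Dnmt3a f/+ leukemia and 35.9 CPM in Dnmt3a f/f leukemia, with all 3 leukemias below all pre-leukemic libraries.

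Cell markers separated these marrow samples too, and their part in the class II levels was not tested. The 8 granulocyte markers summed to 3765, 3533 and 2348 CPM in pre-leukemic marrow, 3116 and 16371 CPM in Dnmt3a f/+ and 12831 CPM in Dnmt3a f/f leukemia. The monocyte and macrophage markers summed to 316, 186 and 170 CPM in pre-leukemic marrow, 559 and 1629 CPM in Dnmt3a f/+ leukemia and 1958 CPM in Dnmt3a f/f leukemia, and the B cell markers to 31.5 to 37.6 CPM over all 6. Dnmt3a f/+ replicate 1 had 182 CPM of Epcam, an epithelial adhesion gene, against at most 4.62 CPM in the other knock-in libraries.

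Psmb8, Psmb9, Tap1 and Tap2 were lowest in Dnmt3a f/+ replicate 2 and the f/f leukemia. Psmb8 was at 312, 285 and 274 CPM in pre-leukemic marrow, 386 and 205 CPM in Dnmt3a f/+ leukemia and 196 CPM in Dnmt3a f/f leukemia. Psmb9 was at 105, 100.5 and 108 CPM in pre-leukemic marrow, 138 and 87.2 CPM in Dnmt3a f/+ leukemia and 71.8 CPM in Dnmt3a f/f leukemia. Psmb10 was at 98.7, 99.7 and 115 CPM in pre-leukemic marrow, 154 and 96.5 CPM in Dnmt3a f/+ leukemia and 102 CPM in Dnmt3a f/f leukemia. Tap1 was at 243, 217 and 252 CPM in pre-leukemic marrow, 218 and 191 CPM in Dnmt3a f/+ leukemia and 172 CPM in Dnmt3a f/f leukemia. Tap2 was at 221, 232 and 244 CPM in pre-leukemic marrow, 238 and 153 CPM in Dnmt3a f/+ leukemia and 125 CPM in Dnmt3a f/f leukemia. Replicate 2 and the f/f leukemia were below every pre-leukemic library for Psmb8, Psmb9, Tap1 and Tap2, and near them for Psmb10. Tapasin was at 248 to 299 CPM before leukemia and 164 to 312 CPM in the leukemias.

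Pre-leukemic marrow and WT-GFP thymocytes differed in the largest share of all genes among the 9 comparisons, and they differ in cell type, sort, tissue, model and submission together, which cannot be told apart. Here 3 of 43 members were called higher (6.98%; background 15.1%) and 5 lower (11.6%; background 16.7%), both below the share over all genes. B2m rose (log2 fold change 1.52 ± 0.33 (SE), adjusted p = 0.00486), as did H2-DMa (2.36 ± 0.60 (SE), adjusted p = 0.0112; 133, 125 and 116 CPM in pre-leukemic marrow, 164 and 74.9 and 99.3 CPM in the knock-in leukemias) and H2-Q7 (2.52 ± 0.77 (SE), adjusted p = 0.0250; 0.0829 after merging with H2-Q9). H2-Q2 fell by 7.67 ± 0.77 on the log2 scale (adjusted p = 2.48e-05), H2-Q1 fell by 5.63 ± 1.30 (0.00670), H2-K2 fell by 3.47 ± 0.67 (0.00243) and H2-T10 fell by 3.26 ± 0.46 (0.000311). Tap2 fell by 0.80 ± 0.29 (0.0477) and kept the call under 6 of 13 alternatives. H2-K1 and H2-D1 gave 1.99 ± 0.75 (SE), adjusted p = 0.0579 and 1.14 ± 0.45 (SE), adjusted p = 0.0717 and did not pass in edgeR. DESeq2 called both higher, and limma voom called H2-K1 but not H2-D1. Without WT-GFP replicate 2 the count of members called higher was 0, and without replicate 1 it was 1 (B2m kept its call there), while H2-Q2, H2-Q1, H2-K2 and H2-T10 kept theirs under all 13 alternatives.

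Per kilobase of exon, B2m was the most abundant member in all 7 groups. It stood at 489 ± 43.6 CPM per kilobase (mean ± SD) in WT-GFP, 501 ± 93.5 in KO-GFP, 1262 ± 289 in WT-ITD, 1761 ± 378 in KO-ITD, 1403 ± 368 in pre-leukemic marrow, 1342 ± 526 in Dnmt3a f/+ and 999 in Dnmt3a f/f leukemia. In WT-GFP it was followed by Psmb8 (234 ± 9.68) and H2-D1 (202 ± 17.8), with Tap2 (162 ± 20.5) and H2-K1 (152 ± 41.3) next and not apart from each other by more than their SD. In pre-leukemic marrow H2-K1 (607 ± 68.4) came next and then H2-D1 (445 ± 67.3), ahead of Psmb8 (237 ± 15.8). In KO-ITD, H2-D1 (485 ± 183), Psmb8 (427 ± 134) and H2-K1 (375 ± 213) differed by less than their SD.

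Of 62 further genes of antigen presentation, listed by their role, 56 were tested. In KO-ITD against KO-GFP, 7 were called higher (12.5%) and 8 lower (14.3%), against the background of 9.8% and 9.85% given above. Among 8 tested proteasome genes, 4 rose and none fell: the activator subunits Psme1 (log2 fold change 0.86 ± 0.28 (SE), adjusted p = 0.0461) and Psme2 (1.25 ± 0.40 (SE), adjusted p = 0.0433) and the core subunits Psmb4 (0.81 ± 0.18 (SE), adjusted p = 0.0116) and Psmb6 (0.90 ± 0.23 (SE), adjusted p = 0.0193). Psmb6 is the constitutive counterpart of Psmb9, and both rose. Of 12 loading and trimming genes only Sec61b, a subunit of the translocation channel, rose (1.52 ± 0.31 (SE), adjusted p = 0.00867). Of 10 genes of the class II route only March8, a membrane ubiquitin ligase, rose (3.38 ± 1.02 (SE), adjusted p = 0.0354).

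Factors that bind class II promoters and genes of interferon signalling held most of the calls in the lower direction. Of 7 promoter factors, Rfx5 fell by 0.99 ± 0.24 (adjusted p = 0.0143), Rfxank fell by 0.80 ± 0.24 (0.0351) and Creb1 fell by 1.68 ± 0.33 (0.00714), and the other 4 were not called. Of 13 interferon signalling genes, Irf9 fell by 1.48 ± 0.27 (0.00511), Stat2 fell by 1.31 ± 0.32 (0.0165) and Ifnar1 fell by 0.54 ± 0.17 (0.0425), Ifnar2 rose by 0.52 ± 0.17 (0.0440), and the other 9 were not called. Irf9 and Stat2 are partners in the complex that carries type I interferon signals. Irf9 was at 62.7 and 61.1 CPM in WT-GFP thymocytes, 99.8 and 64.6 CPM in KO-GFP, 41.7, 43.6 and 69.5 CPM in WT-ITD and 31.4, 34.4, 19.4 and 32.9 CPM in KO-ITD, lower in every KO-ITD leukemia than in every thymocyte library. The part of interferon signalling in the levels of the members was not tested.

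Of the class I-like genes, Mr1, which presents vitamin B metabolites to innate-like T cells, fell by 2.38 ± 0.29 (adjusted p = 0.000564) and Cd1d1, which presents lipids, fell by 0.92 ± 0.28 (0.0352). Mr1 was at 204 and 234 CPM in WT-GFP thymocytes, 224 and 196 CPM in KO-GFP, 98.8, 102 and 119.8 CPM in WT-ITD and 30.4, 48, 35.6 and 47.2 CPM in KO-ITD. The 4 groups did not overlap except for the pair of thymocyte groups, and Mr1 was the only gene of antigen presentation in these lists called in KO-ITD against WT-ITD, where it fell by 1.41 ± 0.26 (0.0320). Of the 15 genes called in KO-ITD against KO-GFP, the other 14 lost the call without KO-GFP replicate 1. Mr1 kept its call between KO-ITD and KO-GFP under all 16 alternatives but that between KO-ITD and WT-ITD under 8 of 18; within the thymus libraries the log2 fold change was -1.40 (adjusted p = 0.0731), within the marrow libraries -1.44 (0.109) and within the first submission -1.44 (0.0699).

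In WT-ITD against WT-GFP edgeR called 0 of the 56, with 8 higher and 3 lower at an unadjusted p under 0.05 (19.6%, against 17.7% of all genes). DESeq2 called 5 of them higher and 2 lower, limma voom 3 and 2, edgeR with the replicate block 0 and 2, and edgeR on the 2 groups alone 6 and 5. In Dnmt3a f/+ leukemia against pre-leukemic marrow, Rfx5 fell by 1.08 ± 0.27 (adjusted p = 0.0384) and Irf9 fell by 1.26 ± 0.31 (0.0371). Rfx5 and Irf9 had also fallen in KO-ITD against KO-GFP, where both lost the call without KO-GFP replicate 1. That comparison shares no library with this one but comes from the same fit with a shared spread, so the 2 are not independent. In Dnmt3a f/+ leukemia against pre-leukemic marrow, both genes lost the call when any of the 5 libraries was left out, at adjusted p of up to 0.129, and with the 2 groups alone. Rfx5 also lost it without the filter and Irf9 with the replicate block. In pre-leukemic marrow against WT-GFP, 10 of the 56 were called higher (17.9%; background 15.1%) and 14 lower (25%; background 16.7%). The 6 highest in support were the chaperones Calr (1.97 ± 0.20 (SE), adjusted p = 3.19e-05), Canx (1.46 ± 0.20 (SE), adjusted p = 0.000298), the trimming peptidases Thop1 (2.49 ± 0.36 (SE), adjusted p = 0.000361) and Ide (1.80 ± 0.40 (SE), adjusted p = 0.00493), Ifnar2 (0.95 ± 0.18 (SE), adjusted p = 0.00194) and Hspa5 (1.30 ± 0.32 (SE), adjusted p = 0.00899). The 6 that fell with the most support were Mr1 (-3.86 ± 0.33), Rfxank (-2.04 ± 0.26), Cd1d2 (-4.38 ± 0.66), Cd1d1 (-1.84 ± 0.30), Socs1 (-3.44 ± 0.62) and Ifnar1 (-0.91 ± 0.18).

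The 11 members removed by the filter were near or at 0 throughout. H2-Ea-ps, the inactive E alpha gene, had 1 count in all, and H2-M1, H2-M10.3, H2-M10.4 and H2-M10.5 had 0 in every library. H2-M10.2, H2-M10.6, H2-M11, H2-M5 and H2-M9 were at most 0.243 CPM and H2-Bl at most 0.33 CPM in any library. A count of 0 allows up to 3 counts in a library, for counting error only.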

How the data were processed

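Estimated counts per gene and per transcript were deposited by the authors for 17 libraries, unscaled for depth and on gene models of mm9; TopHat2 2.0.10, Cufflinks 2.1.1 and Cuffdiff 2.1.1 and 2.2.1 are named per the submitters' processing notes, without their order, and the sources used here do not give the use of strand. Between 98.1% and 98.5% of values were whole within 0.001, and all were rounded. The deposited FPKM values, made per library, were not used. Counts were filtered with filterByExpr (15508 genes kept), scaled by TMM (factors 0.943 to 1.076) and fitted with edgeR 4.0.16 (R 4.3.3) glmQLFit over the 7 groups, and 9 contrasts were tested with glmQLFTest and Benjamini-Hochberg adjustment at 0.05; the fit was tested on simulated data. DESeq2 1.42.0 and limma 3.58.1 (voom), other scalings, no filter, a replicate block, the contrast's groups alone, single libraries left out, 1 tissue or submission, and merging of overlapping models (added after the data were seen) were alternatives. Figures used matplotlib 3.10.9.

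Depth was 4933890 to 25331908 counts per library, which limits precision most for members under 10 CPM. The members and lists were chosen with earlier results of these data known. Members with values in every library are 12 named ones (B2m, H2-K1, H2-D1, Tap1, Psmb8, Psmb9, Nlrc5, Cd74, H2-Aa, H2-Ab1, H2-Eb1, Ciita) and all called ones; of other genes of antigen presentation, up to 6 called per direction were named by lowest adjusted p, and any others named were chosen after their values were seen. Paralogs and overlapping models make single rows uncertain. Some single genes of the lists are not reported here, although counts and sums over a list include them.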

Additional observations from a re-analysis of the deposited data

Results flagged for a closer look

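KO-ITD was the only group with 4 libraries, and in 8 of the 43 tested members its replicate 3 lay so far from the other 3 that the gap exceeded 0.829 of the group's range (Dixon's 95% limit); chance flags about 1 in 20 groups, and members share reads and sequence. Among class II genes these were Ciita at 8.66 CPM (others 1.15, 1.04 and 1.46), H2-DMb2 at 14.9 CPM (1.91, 1.32 and 3.52) and H2-Ob at 27.9 CPM (1.40, 0.275 and 2.18). Among class I genes they were H2-Q4 at 605.8 CPM (203.6, 221.3 and 211.6), H2-Q5 at 13.2 CPM (1.27, 0.824 and 1.09), H2-Q8 at 72.3 CPM (0, 2.80 and 3.16), H2-T9 at 75.9 CPM (47.5, 42.8 and 43) and H2-L at 57.6 CPM (0.764, 0.934 and 0). H2-L, H2-Q8 and H2-T9 are models that overlap another gene, and the H2-Q5 model is noncoding. The same library had the highest sum of the 8 B cell markers (196 CPM) of the retroviral leukemias, with the highest Cd79a (38.4 CPM) and Pax5 (7.1 CPM). Of these markers, Cd79b was highest in KO-ITD replicate 4 (80.3 CPM) and Ms4a1 in WT-ITD replicate 3 (14.3 CPM). The part of B cells in the flagged values was not tested.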

How the results depend on the processing

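Over all alternatives, 209 of 252 counts of members called stayed within 1.5 times the main count and 43 moved; no log2 fold change of a called gene reversed. KO-GFP against WT-GFP and the difference of the FLT3-ITD effect had 0 members called throughout. In WT-ITD against WT-GFP, 0 called higher became 1 without the filter, with DESeq2 and with limma voom and 4 with the contrast's groups alone; 0 lower became 1 with DESeq2 and voom, 2 with those groups alone, and 0 to 1 with a library left out (1 without WT-ITD replicate 3). In KO-ITD against KO-GFP, 6 higher became 11 with DESeq2, 1 with the groups alone and 0 to 9 with a library left out (0 without KO-GFP replicate 1, 1 without replicate 2); 1 lower became 2 with DESeq2, voom or the thymus KO-ITD libraries, 0 with the groups alone and 0 to 2 with a library left out (0 without either KO-GFP library or KO-ITD replicate 1 or 4, 2 without KO-ITD replicate 3). In KO-ITD against WT-ITD, 0 higher became 1 in marrow libraries and 0 to 2 with a library left out. In Dnmt3a f/+ against pre-leukemic marrow, 0 higher became 1 with DESeq2 size factors or merged models, 3 with DESeq2 and 0 to 2 with a library left out (2 without f/+ replicate 1); 0 lower became 0 to 1 (1 without f/+ replicate 2). In Dnmt3a f/f against pre-leukemic marrow, 0 higher became 1 with DESeq2 or voom and 3 with the groups alone, and 0 lower became 1 with DESeq2 and 7 with the groups alone. Dnmt3a f/f against f/+ went from 0 lower to 0 to 1 (1 without f/+ replicate 2). In pre-leukemic marrow against WT-GFP, 3 higher became 8 with DESeq2 or voom, 19 with the groups alone and 0 to 3 with a library left out, and 5 lower became 12 with the groups alone and 4 with any library left out. The cause of these shifts was not tested. Same-numbered replicates did not pair (correlations of deviations from -0.31 to 0.35); with the replicate block, members called higher became 1 in Dnmt3a f/+ and 1 in Dnmt3a f/f against pre-leukemic marrow and 6 in pre-leukemic marrow against WT-GFP, and other counts stayed within 1.5 times. Low counts limit H2-L, H2-Q6, H2-M10.1 and the Ciita transcripts most.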
